A study of Mus musculus with 3 samples.

Results

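Notch signalling was described in mouse distal colon through 10 genes: the 4 receptors Notch1, Notch2, Notch3 and Notch4, the 4 ligands Dll1, Dll4, Jag1 and Jag2, and the target genes Hes1 and Hey1. The genes were taken by name, with no threshold on their values, and they are 10 of the 24346 gene symbols in the deposited tables. The only group of the series is wild-type distal colon from mice of 8 weeks, labelled as strain JAX (a supplier's name) and as steady-state, and it holds 3 samples labelled as separate RNA-seq libraries of polyadenylated RNA, which are counted as 1 sample here for the reasons given with the comparison of the files. There is therefore no contrast between conditions, and the comparisons are between genes within this tissue. The unit is FPKM, fragments scaled to transcript length and to the mapped fragments of the file, which makes the levels of genes of different lengths comparable.

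Notch receptors are single-pass membrane proteins that bind ligands of the Delta-like and Jagged families on a neighbouring cell. Binding exposes the receptor to cleavage by ADAM proteases and then by gamma-secretase, and the freed intracellular part joins the DNA-binding protein RBPJ to switch on genes such as those of the Hes and Hey families. In the intestinal crypt the pathway keeps progenitors from becoming secretory cells, because HES1 represses Atoh1, the gene that starts the secretory programme. The same pathway is used in blood vessels, by endothelium and by the muscle cells and pericytes around it.

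Before genes were compared, the 3 files were compared with each other. Replicates 1, 2 and 3 held 3.78e+06, 3.79e+06 and 1.24e+06 mapped fragments, as worked out from the authors' confidence bounds. In the 8771 single-isoform genes whose mean reached 1 FPKM, a chi-square test against sampling noise, with Benjamini-Hochberg adjustment, called 7 genes as different between files (0.0798%), and 4.98% had an unadjusted p under 0.05. The spread between files was thus that of sampling noise, and the files were counted as 1 sample. Every ± below is the SD over the 3 files, a measurement error of that sample that holds no spread between animals. The tissue label was checked with 8 markers of colon epithelium, all at 1 FPKM or more in every file, with Krt8 at 1682 ± 23.4 and Car4 at 817 ± 13.5 FPKM. Of 5 genes typical of other organs, the pancreas genes Pnlip, Cpa1 and Ins2 were listed at 0, but the liver genes Alb (135, 125 and 128 FPKM) and Ttr (57.0, 69.6 and 55.5 FPKM) were high in every file. The part of such RNA in the levels of the Notch genes was not tested.

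Of the 10 Notch genes, 7 stood at 1 FPKM or more in every file, where 48.5% of all listed symbols did so. The 3 that stayed under 1 FPKM in every file were Notch3, Notch4 and Jag2. The median over the 10 genes was 3.06 FPKM, beside 1.25 over all symbols and 4.78 over the 17060 symbols above 0. None of the 7 genes that could be tested between files was called, where 0.0798% of all genes tested were. The smallest unadjusted p of the chi-square test among the 7 was 0.116 (Dll4). Each of the 10 genes was listed with 1 isoform, so no value rests on how reads were divided between transcript forms. RNA of whole tissue was measured, so fewer cells of a type and less RNA per cell cannot be told apart.

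**Figure D1:**
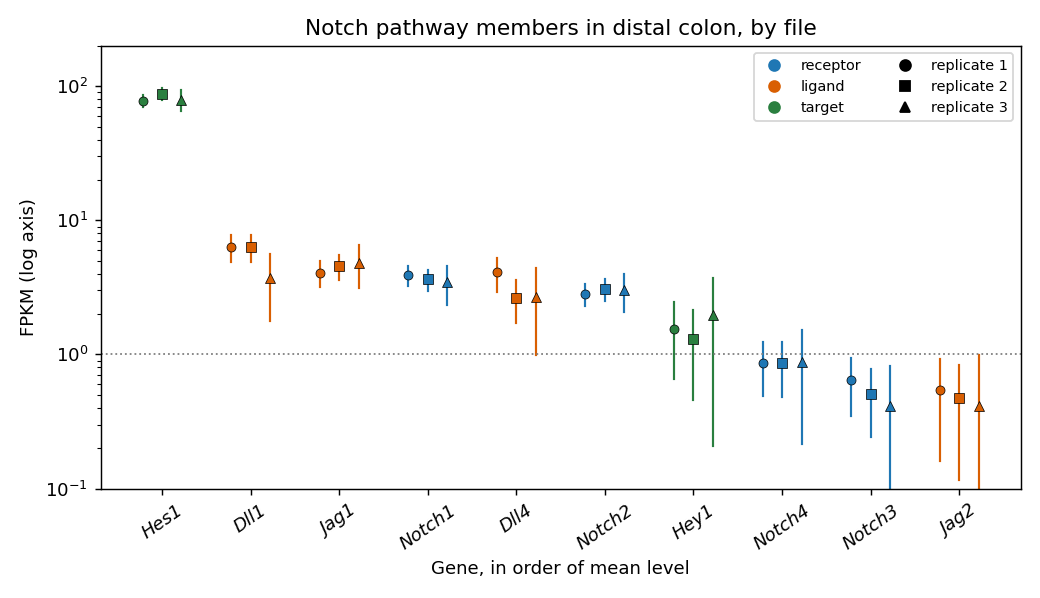
FPKM on a log axis for each of the 10 genes in each of the 3 files, in order of mean level; vertical lines are the authors' 95% confidence bounds, cut off below at 0.1 FPKM, and the dotted line marks 1 FPKM. Hes1 stands apart at 77.8 to 87.9 FPKM, while Notch4, Notch3 and Jag2 lie under the dotted line in all files.

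Among the receptors, Notch1 and Notch2, which act together in the progenitors of the intestinal crypt, were the more abundant pair. Notch1 (NM_008714; chromosome 2, 26457902 to 26503822, minus strand, 34 exons) stood at 3.91, 3.63 and 3.45 FPKM in replicates 1, 2 and 3, with 306 fragments behind the 3 values. Notch2 (NM_010928; chromosome 3, 98013538 to 98150367, plus strand, 34 exons) stood at 2.84, 3.07 and 3.03 FPKM, with 270 fragments. The lowest Notch1 value was above the highest Notch2 value, and over all files Notch1 was 1.26 times Notch2, with a 95% counting interval of 1.07 to 1.48. Such intervals cover counting error only and are not adjusted for the number of ratios.

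Notch4 and Notch3 are best known from blood vessels, Notch4 from endothelium and Notch3 from vascular smooth muscle cells and pericytes. Notch4 (NM_010929; chromosome 17, 34564295 to 34588543, plus strand, 30 exons) stood at 0.862, 0.861 and 0.874 FPKM in replicates 1, 2 and 3. Notch3 (NM_008716; chromosome 17, 32120893 to 32166852, minus strand, 33 exons) stood at 0.646, 0.509 and 0.413 FPKM. The deepest file held 21 fragments of Notch4 and 15 of Notch3, and the shallowest 7 and 4. No Notch3 value reached the lowest Notch4 value, but the counting interval of their ratio, 1.02 to 2.38 around 1.56, came close to 1. Both lay below Notch1 and Notch2 in every file, and Notch1 and Notch2 together were 4.80 ± 0.288 times Notch3 and Notch4 together.

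The low Notch3 level stood beside plentiful RNA of muscle. The 6 smooth muscle markers had a median of 416 FPKM, with Tagln at 754 ± 18.9 and Actg2 at 581 ± 43.3 FPKM, and Myh11, the smooth muscle myosin, was 536 ± 123 times the level of Notch3. The wall of the colon is itself built largely of smooth muscle, apart from that of its vessels. The 5 pericyte markers had a median of 6.96 FPKM, from Cspg4 at 1.74 ± 0.0950 to Rgs5 at 34.8 ± 2.28 FPKM. Rgs5, the highest of them, was 68.1 ± 10.7 times Notch3. Notch3 itself stood at 0.523 ± 0.117 FPKM, so lower markers such as Cspg4 exceeded it by far less. The 8 markers of blood endothelium all reached 1 FPKM in every file and had a median of 3.73 FPKM, from Tek at 1.69 ± 0.408 to Plvap at 16.1 ± 1.57 FPKM. Which cells held the RNA of any member was not tested.

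Among the ligands, 3 of the 4 lay between 2.65 and 6.32 FPKM and Jag2 lay far below them. Dll1, a ligand carried by secretory progenitors of the crypt (NM_007865; chromosome 17, 15367354 to 15375823, minus strand, 11 exons), stood at 6.32, 6.31 and 3.69 FPKM. Jag1, a ligand of both epithelium and stroma (NM_013822; chromosome 2, 137081451 to 137116520, minus strand, 26 exons), stood at 4.07, 4.56 and 4.83 FPKM. Dll4, which acts in the crypt beside Dll1 and in the endothelium of sprouting vessels (NM_019454; chromosome 2, 119325784 to 119335666, plus strand, 11 exons), stood at 4.10, 2.65 and 2.69 FPKM. The values of these 3 genes overlapped between files.

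Dll1 was the highest ligand in replicates 1 and 2, and Jag1 was the highest in replicate 3. Over all files Dll1 was 1.35 times Jag1 (95% counting interval 1.10 to 1.66), and this order was reversed in replicate 3, where the ratio was 0.765. The low Dll1 value of replicate 3 rested on 15 fragments, against 76 in each of the other two files. The high Dll4 value of replicate 1 rested on 48 fragments. By the chi-square test between files, neither spread passed (Dll1 unadjusted p = 0.136, Dll4 unadjusted p = 0.116, both with adjusted p = 0.998).

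Jag2 (NM_010588; chromosome 12, 112908590 to 112929495, minus strand, 26 exons) stood at 0.544, 0.475 and 0.413 FPKM, with 8, 7 and 2 fragments. It was the lowest of the 10 genes on average. Dll1 was 12.0 times Jag2 (7.27 to 19.7), Jag1 was 8.85 times Jag2 (5.39 to 14.5) and Dll4 was 6.62 times Jag2 (3.94 to 11.1). Jag2 made up 3.52% ± 0.115 of the summed ligand level, Dll1 39.6% ± 6.97, Jag1 33.7% ± 7.30 and Dll4 23.1% ± 4.17.

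The start regions of the receptor and ligand genes were searched for the short sites that tie the pathway to its own genes. RefSeq windows on GRCm38.p6, the 250 bases before the start, were matched for 8 of the 10 genes and gave 9 windows, since Dll1 has a further start. The sequence source had no window for Hes1 and Hey1, so the target genes were not searched. The RBPJ core TGGGAA was found on neither strand of any of the 9 windows, and 21.6% of all 32841 windows of that length hold it. The HES site CACGCG was found on either strand in 4 windows, of Dll4, Jag1, Notch2 and the other start of Dll1, and 7.62% of all windows hold it. The further HES site CACNAG was found in 4 windows, of Notch1, Dll4, Notch2 and Notch3, and 36.7% of all windows hold it. No 2 matches overlapped. The 9 windows held from 56% to 87.2% G and C, and the shares over all windows were not matched to this composition. The counts are therefore no measure of enrichment. The other start of Dll1 lies 1109 bases from that of the measured isoform, whose own window held none of the 3 motifs.

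The windows printed here are the 3 that lie directly before the start of a measured isoform and hold CACGCG, and they belong to 2 ligands and 1 receptor. They are given 5′ to 3′ on the strand of the gene, with CACGCG, or CGCGTG where it lies on the other strand, in capitals. Dll4 lies at chr2:119325534-119325783 on the plus strand, Jag1 at chr2:137116521-137116770 on the minus strand and Notch2 at chr3:98013288-98013537 on the plus strand.
Dll4: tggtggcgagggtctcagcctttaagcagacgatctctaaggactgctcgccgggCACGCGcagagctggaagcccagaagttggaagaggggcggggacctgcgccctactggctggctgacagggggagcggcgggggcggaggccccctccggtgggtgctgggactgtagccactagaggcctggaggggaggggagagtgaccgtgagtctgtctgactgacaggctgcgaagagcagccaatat
Jag1: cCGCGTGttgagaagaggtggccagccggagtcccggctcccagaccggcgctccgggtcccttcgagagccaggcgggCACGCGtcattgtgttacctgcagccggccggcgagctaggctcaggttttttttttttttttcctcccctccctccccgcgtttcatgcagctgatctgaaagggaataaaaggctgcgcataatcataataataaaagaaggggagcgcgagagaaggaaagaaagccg
Notch2: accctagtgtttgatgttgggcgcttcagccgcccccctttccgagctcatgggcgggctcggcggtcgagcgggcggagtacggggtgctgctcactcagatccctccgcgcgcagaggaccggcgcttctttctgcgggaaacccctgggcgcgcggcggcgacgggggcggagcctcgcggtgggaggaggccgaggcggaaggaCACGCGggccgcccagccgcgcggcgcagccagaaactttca
Counted back from the first transcribed base, the matches begin at -195 in Dll4, at -249 and -171 in Jag1 and at -42 in Notch2. A match describes the letters and is not evidence that a protein binds there.

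Ligands were next paired with receptors, which gave 16 ratios of RNA level. The 4 ligands summed to 15, 14 and 11.6 FPKM and the 4 receptors to 8.26, 8.06 and 7.77 FPKM in replicates 1, 2 and 3. Ligand RNA was thus above receptor RNA in every file, by 1.82, 1.74 and 1.5 times, with a mean of 1.68 ± 0.168. Of the 16 pairs, the ligand was higher in 9 and lower in 3 with a counting interval that left out 1, and in 4 the interval held 1.

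The ratios of Dll1, Dll4 and Jag1 to Notch1 and Notch2 ran from 0.881 to 2.01, and in 3 of these 6 pairs the interval left out 1. Dll1 was 1.6 times Notch1 (95% counting interval 1.32 to 1.93), although their values overlapped between files, and it was 2.01 times Notch2 (1.65 to 2.43). Dll4 was 0.881 times Notch1 (0.696 to 1.12) and 1.11 times Notch2 (0.872 to 1.41), and neither interval left out 1. Jag1 was 1.18 times Notch1 (0.987 to 1.41), an interval that held 1 even though Jag1 was the higher in all 3 files, and 1.48 times Notch2 (1.23 to 1.78).

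The pairs best known from vessels were uneven, with more ligand than receptor RNA, but this was not particular to them. Dll4 was 3.80 times Notch4 (2.68 to 5.39), and Jag1 was 7.91 times Notch3 (5.59 to 11.2). Dll1 was 10.7 times Notch3 (7.52 to 15.3) and 6.88 times Notch4 (5.01 to 9.46). Dll4 was 5.92 times Notch3 (4.04 to 8.66), and Jag1 was 5.08 times Notch4 (3.72 to 6.94). The ratio of Jag1 to Notch3 was 6.30, 8.95 and 11.7 in replicates 1, 2 and 3, the last resting on 4 fragments of Notch3. Jag2 was the exception among the ligands: it was 0.133 times Notch1 (0.0817 to 0.217) and 0.167 times Notch2 (0.103 to 0.273). Against the low receptors it was 0.574 times Notch4 (0.331 to 0.997) and 0.894 times Notch3 (0.504 to 1.59). These are ratios of RNA in whole tissue and say nothing of which cells face each other.

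**Figure D2:**
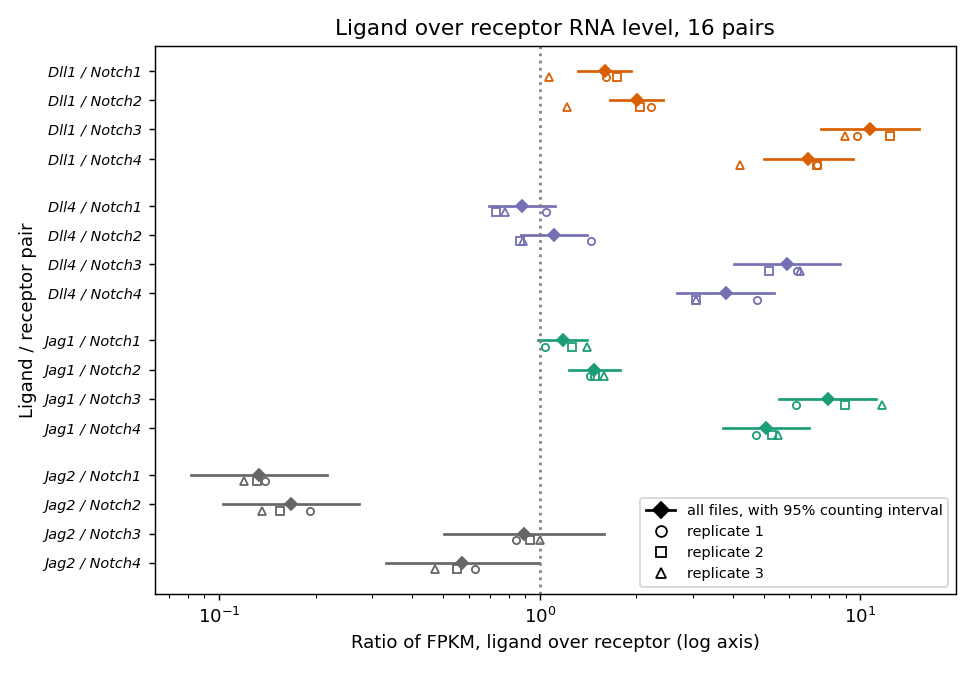
Ratio of ligand to receptor FPKM on a log axis for the 16 pairs; diamonds are all files together with the 95% counting interval, open symbols are the single files, and the dotted line marks equal levels. Dll1, Dll4 and Jag1 lie to the right of the line against Notch3 and Notch4 and nearer to it against Notch1 and Notch2. There the intervals of Dll1 over Notch1, Dll1 over Notch2 and Jag1 over Notch2 still lie to its right. Jag2 lies to the left against Notch1, Notch2 and Notch4.

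The 2 target genes differed more from each other than any 2 receptors or any 2 ligands did. Hes1, a basic helix-loop-helix repressor (NM_008235; chromosome 16, 30065357 to 30067796, plus strand, 4 exons), stood at 77.8, 87.9 and 79.3 FPKM in replicates 1, 2 and 3, from 926 fragments. Hey1, a related repressor best known as a Notch target in endothelium and heart (NM_010423; chromosome 3, 8663359 to 8667038, minus strand, 5 exons), stood at 1.55, 1.29 and 1.97 FPKM, from 27 fragments. The groups of values lay far apart. Hes1 was 50.1, 67.9 and 40.3 times Hey1, with a mean of 52.7 ± 14 and a counting interval over all files of 37.2 to 80.5.

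Hes1 was also 10.2 ± 0.744 times the sum of the 4 receptors and 13.9 times Dll1 (11.8 to 16.3), the next highest of the 10 genes. It ranked 780th of all symbols, and 96.8% of them stood at or below its level. The other 9 genes ran from Jag2, with 42.8% of symbols at or below it, to Dll1, with 66.9%. Among the 17060 symbols above 0 alone, Jag2 lay at 18.3%, Notch3 at 19.2%, Notch4 at 24.4%, Dll1 at 52.8% and Hes1 at 95.4%. RNA level alone does not show how much of Hes1 is made in answer to Notch, since Hes1 also has other inputs.

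**Figure D3:**
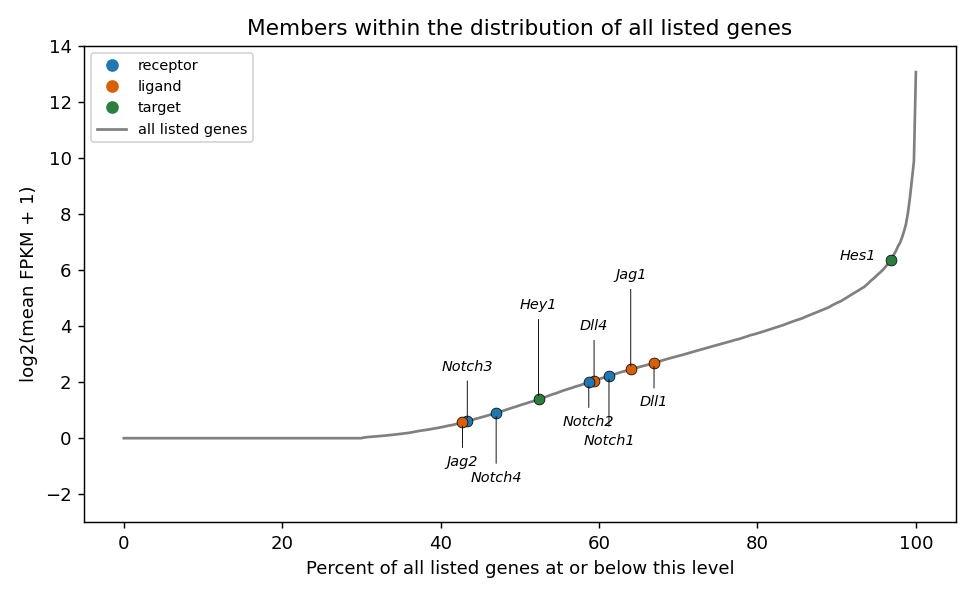
Each of the 10 genes on the curve of all 24346 listed symbols; the horizontal axis is the percentage of symbols at or below a level and the vertical axis is log2(mean FPKM + 1). Hes1 lies at 96.8% and the other genes between 42.8% and 66.9%.

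In full, the order of mean levels was Hes1 (81.7 ± 5.46 FPKM), Dll1 (5.44 ± 1.51), Jag1 (4.49 ± 0.385), Notch1 (3.66 ± 0.235), Dll4 (3.15 ± 0.826), Notch2 (2.98 ± 0.122), Hey1 (1.61 ± 0.340), Notch4 (0.866 ± 0.00700), Notch3 (0.523 ± 0.117) and Jag2 (0.478 ± 0.0652). Of the 9 steps between neighbours, 5 had a counting interval that left out 1: Hes1 over Dll1, Dll1 over Jag1, Notch2 over Hey1 (1.97 times, 1.32 to 2.93), Hey1 over Notch4 (1.74 times, 1.09 to 2.80) and Notch4 over Notch3. The steps from Jag1 to Notch1, Notch1 to Dll4 and Dll4 to Notch2 had intervals that held 1, as had that from Notch3 to Jag2 (1.12 times, 0.631 to 1.98). From Dll1 down to Notch2, every pair more than 1 step apart had an interval that left out 1. These were Dll1 over Notch1, Dll4 (1.81 times, 1.40 to 2.34) and Notch2, Jag1 over Dll4 (1.34 times, 1.04 to 1.71) and Notch2, and Notch1 over Notch2. Without replicate 1, Notch2 stood above Dll4. The SD of Notch4 was 0.809% of its mean, but the authors' bounds in replicate 1 ran from 0.486 to 1.24 FPKM, and its precision is that of its 49 fragments.

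The rest of the pathway was read from 10 lists of 70 other genes, with a median of 5.69 FPKM. Of these, 52 (74.3%) reached 1 FPKM in every file, where 48.5% of all symbols did so. Of the 30 that could be tested, 0 were called as different between files by the chi-square test. Over all genes tested, 0.0798% were called, so a count of 0 in 30 genes says little of the pathway. The counts at 1 FPKM of the single lists below also stand beside the 48.5% of all symbols. Those lists are small, and their counts are not read as results about them. Among the other Hes and Hey genes, 1 of 8 reached 1 FPKM in every file, and the median was 0.470 FPKM. This was Hes6, a family member that counters HES1, at 21.2, 21.7 and 18.5 FPKM, and Hes1 was 4.0 ± 0.309 times as high. Hes2 followed at 1.33 ± 0.594 FPKM. Hes3, Hes5 and Helt were listed at 0 in every file, and 3 fragments over the files together would have made 0.205, 0.307 and 0.249 FPKM of them.

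Other genes known as Notch targets had a median of 11.3 FPKM. Of these 6 genes, 4 reached 1 FPKM in every file, where 48.5% of all symbols did so. Sox9, a crypt transcription factor, was the highest at 33.6 ± 1.38 FPKM and the cell cycle gene Ccnd1 followed at 17.3 ± 1.66 FPKM; both also answer to other pathways. Dtx1, a ubiquitin ligase of the Deltex family, stood at 1.35 ± 0.607 FPKM, and Olfm4, a marker of crypt stem cells in the small intestine, at 0.420 ± 0.108 FPKM. The 5 crypt base markers all reached 1 FPKM in every file, with Lgr5 at 3.96 ± 0.0737 and Lrig1 at 22.7 ± 2.26 FPKM.

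The secretory genes on the repressed side of Hes1 were present beside it. Atoh1 stood at 17.8, 18.7 and 17.5 FPKM, and Hes1 was 4.36, 4.71 and 4.52 times Atoh1. Spdef, a factor of goblet cell maturation, stood at 9.65 ± 0.980 FPKM and Gfi1 at 2.36 ± 0.368 FPKM. Neurog3, the factor that starts enteroendocrine cells, stood at 1.15, 0 and 0.584 FPKM. Dll1, which ATOH1-positive cells carry, was 0.301 ± 0.0786 times the level of Atoh1.

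Non-canonical and decoy ligands had a median of 1.55 FPKM, beside 1.25 over all symbols. Of these 8 genes, 4 stood at 1 FPKM or more in every file, close to the 48.5% of all symbols. The matrix protein gene Mfap5 (5.74 ± 2.19 FPKM) and Nov (4.22 ± 0.646 FPKM), which encodes a secreted CCN protein, were the highest. Dll3, a Delta-like protein that does not activate receptors on neighbouring cells, stood at 0.132, 0 and 0 FPKM. Dlk2 was listed at 0, where 3 fragments would have made 0.272 FPKM.

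Enzymes that add sugars to the receptors had a median of 7.87 FPKM, and 4 of 5 reached 1 FPKM in every file. The fringe gene Rfng stood at 8.84 ± 1.61 FPKM and Pofut1, which adds the O-fucose that fringe proteins extend, at 7.89 ± 1.2 FPKM. Lfng, at 5.92 ± 2.32 FPKM, was lower in the shallowest file, and the third fringe gene, Mfng, stood at 0.475, 0.158 and 0 FPKM. Of the Mind bomb and Neuralized ubiquitin ligases, families known for moving ligands into the sending cell, all 5 reached 1 FPKM in every file. Neurl3 (34.3 ± 0.365 FPKM) and Neurl1b (11.6 ± 0.108 FPKM) were the highest. Mib1, the one best known for this step, stood at 3.37 ± 0.154 FPKM, above Neurl1a at 1.62 ± 0.213 FPKM. Which of these ligases act on Notch ligands in this tissue was not tested.

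Of the 10 lists of other pathway genes, that of the proteases that cut the receptor had the highest median, 23.9 FPKM. In it, 9 of 10 genes stood at 1 FPKM or more in every file. The gamma-secretase subunit gene Psenen led it at 95.2 ± 3.76 FPKM. Aph1b (2.34 ± 0.608 FPKM) and Aph1c (0.945 ± 0.299 FPKM) were the lowest, and these close duplicates of each other are uncertain, because reads that fit both may have been divided. These enzymes cut many other proteins besides Notch.

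In the nucleus, 6 of 7 genes of the RBPJ complex and its co-activators reached 1 FPKM in every file (median 11.7 FPKM), led by Snw1 at 27.9 ± 1.22 and Kat2b at 19.5 ± 1.38 FPKM. The mastermind genes were the lowest, with Maml3 at 2.15 ± 0.104 and Maml2 at 0.909 ± 0.136 FPKM. Co-repressor genes had a median of 7.80 FPKM, with 8 of 9 at 1 FPKM or more in every file, from Tle2 (0.262 ± 0.228 FPKM) and Spen (3.82 ± 0.366 FPKM) to Ctbp2 (23.8 ± 0.768 FPKM) and Ctbp1 (62.2 ± 2.63 FPKM). The 8 genes of receptor turnover and inhibition had a median of 4.99 FPKM, and all of them reached 1 FPKM in every file. Dtx3l (21.8 ± 1.18 FPKM) and the ubiquitin ligase Itch (21.0 ± 1.14 FPKM) were the highest and Numbl (2.13 ± 0.611 FPKM) and Dtx2 (2.42 ± 0.214 FPKM) the lowest.

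**Figure D4:**
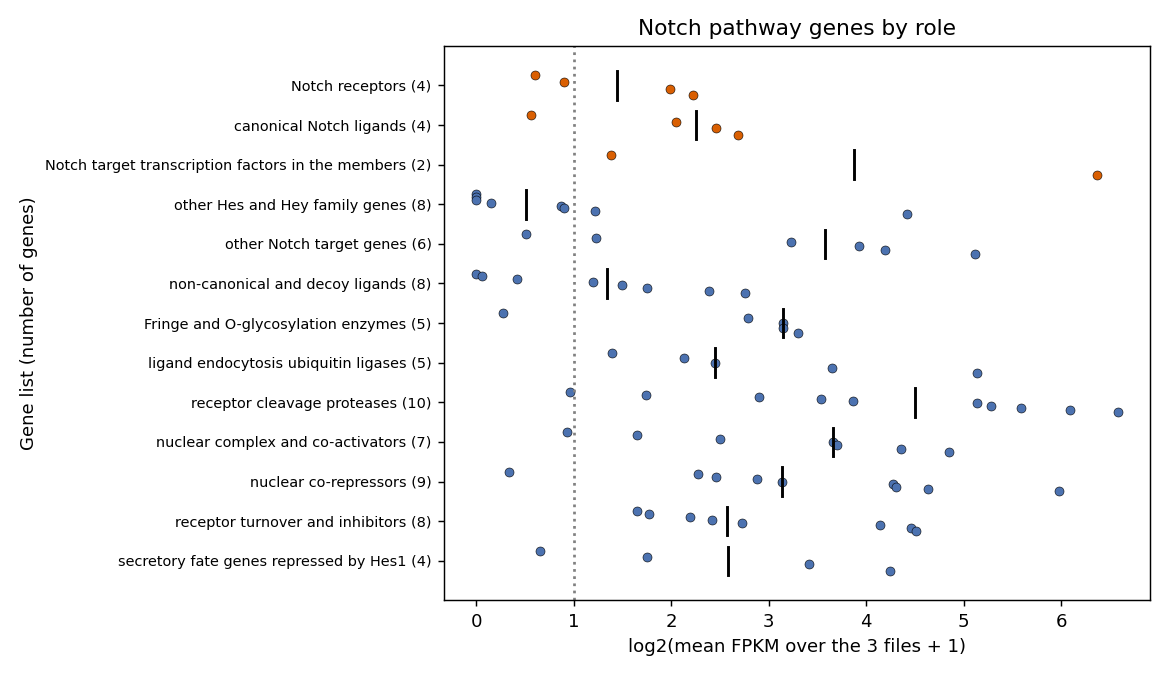
Level of each gene as log2(mean FPKM over the 3 files + 1) by role in the pathway, with the number of genes in brackets; each point is a gene, orange for the 10 Notch genes and blue for the others, black bars are the medians of these log2 values, and the dotted line marks 1 FPKM. The receptors and ligands lie below most genes of the receptor cleavage list, and Hes1 lies above all genes shown but Psenen.

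Overlapping genes limit some of these levels. In the GENCODE M21 annotation of GRCm38, genes on the opposite strand overlap Notch1, Notch3, Notch4, Dll1 and Dll4, and 2 genes on the same strand overlap Notch2. A match to a transcript of another gene, over 100 or more bases and at 97% identity or above, was found for Notch1 (964 bases), Dll1 (447 bases), Notch3 (333 bases), Dll4 (214 bases) and Notch2 (204 bases), and the longest match was in each case to an overlapping gene. The sources used here do not say whether counting used the strand, so reads of the opposite-strand stretches cannot be told apart, and those of Notch2 could not be told apart by strand in any case. Jag1, Jag2, Hes1, Hey1 and Notch4 had no such stretch. Of the overlapping long transcripts, the files list, by symbol, only Gm14207, the partner of Dll4, at 0.648, 1.62 and 0 FPKM.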

How the data were processed

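The members and gene lists were chosen with earlier results of these data known. Each of the 3 labelled libraries (1 group, replicate numbers from the titles) has 1 isoform table that the authors deposited with Cufflinks columns. These give FPKM with 95% confidence bounds and, per the file headers, mean read coverage, a signal not scaled to depth. Coverage was used only to compare depth and to describe how deeply the members were read. Per the submitters' processing notes, Cufflinks 2.2.1, TopHat2 2.1.1 and Bowtie2 2.3.4.3 were used, with no order or settings given. Those notes name GRCm39, but 61.5% of 23143 symbols have the start base of RefSeq on GRCm38.p6, so positions are given as GRCm38, counted from 1. Names of the 3 files share 1 library, index and lane and differ in a running number, and nothing says that they are separate animals.

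Values of all isoforms of a symbol were added up and not rescaled. The upper bound less the FPKM was read as 2 standard errors, and the squared FPKM over the squared standard error as fragments. In single-isoform genes over 800 bases with up to 30 fragments, 64.2% to 64.3% of these lay within 0.01 of a whole number. Depth is the Theil-Sen slope of fragments per FPKM on length. The test between files was a chi-square of a gene's 3 values, scaled to a common median ratio, against their weighted mean with these sampling variances, Benjamini-Hochberg adjusted at 0.05 over all genes tested, and it was tested on simulated data. Ratios over all files used depth-weighted levels, with 95% intervals from the fragments of both genes. Where a gene was listed at 0, the limit printed is what 3 fragments over the files would make. Limits and intervals cover counting error only. Near-identical transcripts were sought with BLAST+ 2.17.0 for the 10 genes only.

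The text names all 10 members, the 2 highest, the 2 lowest and every gene at 0 of each pathway list, and the highest or lowest markers. Other genes are covered by counts and medians. A gene that this rule takes is not reported here. Marker lists not used beside a result (fibroblasts, median 44.6 FPKM; neurons and glia, 3.37; T and B cells, 0.891; macrophages, 28.1) were read in the same way. No gene was sought for a pattern like that of a member, since 1 group holds none. Alternatives covered the threshold, scaling, isoform choice, weighting, pseudocount, filter and leaving out each replicate. Tools were SciPy 1.17.1, pandas 2.3.3, numpy 2.4.6 and matplotlib 3.10.9 under Python 3.11.15.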

Additional observations from a re-analysis of the deposited data

How the results depend on the processing

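Of 60 member levels recomputed, 50 stayed within 1 SD of the reported mean, but most of these outcomes were fixed beforehand. Taking the highest isoform changes nothing in genes with 1 isoform. Leaving out 1 of 3 values always moves their mean by less than 1 SD. Only the depth-weighted mean could have gone either way, and all 10 levels stayed within 1 SD under it. The 10 levels that moved were those rescaled to a common sum per file (TPM). This multiplied all levels by 2.33 to 2.35 (a log2 shift of 1.23) and left ratios within a file as they were. The count of members at 1 FPKM or more in every file was 7 as reported, 8 after that rescaling or at 0.5 FPKM, 6 at 2 FPKM and 5 where the lower bound had to reach 1 FPKM. The ligand over receptor ratio of 1.68 became 1.46 with a pseudocount of 1 FPKM and 1.97 with only genes at 1 FPKM or more in every file, and ranged from 1.62 to 1.78 without 1 replicate. Hes1 over Hey1, 52.7 as reported, became 32.2 with a pseudocount of 1 FPKM and ranged from 45.2 to 59.0 without 1 replicate. The genes called between files, 7 as reported, were 4 without replicate 1, 4 without replicate 2 and 6 without replicate 3, where fewer files enter the test, and 0 members were called under any of the 6 settings tried, with unadjusted p from 0.0532 upward. No paired analysis was possible because the labels give 1 group. Depth limits Jag2, Hey1, Notch3 and Notch4, each with under 50 fragments over all files.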

Other observations

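The read coverage behind the members was thin apart from Hes1. The Hes1 isoform was covered to a mean depth of 41.6, 47.5 and 14 reads in replicates 1, 2 and 3. The receptor and ligand isoforms were covered to between 0.0781 reads (Notch3 and Jag2 in replicate 3) and 3.54 reads (Dll1 in replicate 2). Over all genes above 10 FPKM in every file, the median coverage per unit of FPKM was 0.559, 0.561 and 0.184, in the same order as the depths. Of the 30 fragment numbers recovered for the members, 12 lay within 0.01 of a whole number.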
